A study of Mus musculus with 9 samples.

Results

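The Hippo pathway genes examined here were *Yap1* and *Wwtr1*, their DNA-binding partners *Tead1*, *Tead2*, *Tead3* and *Tead4*, the inhibitors *Lats2* and *Amotl2*, and the target genes *Ankrd1* and *Axl*, 10 genes in all. Open chromatin near them was measured by ATAC-seq, in which a transposase inserts adapters into accessible DNA and a peak marks where such insertions pile up. A region was assigned to one of these genes when its nearest protein-coding start site (GENCODE mouse release 21, genome build mm10) belonged to that gene. This chose 110 of the 97338 consensus regions of the series, and 17165 genes had at least 1 such region. A consensus region is a stretch of touching peaks from all 9 libraries that held a peak in at least 2 of the 3 libraries of any line.

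The cells were C3H/10T1/2, an established mouse line that serves as mesenchymal progenitor cells (MPCs). *Atrx* WT cells and 2 *Atrx* knockout (KO) clones, B10 and G7, gave 3 libraries each. The WT group received the Cas9 vector with no guide, the knockouts were made by transient transfection of Cas9 with *Atrx* guides, and each knockout line is 1 clone, so a difference between a clone and WT can belong to the clone as well as to the loss of ATRX. WT was 1 line as well, so a difference shared by both clones can also belong to that line. No treatment separates the groups. ATRX is a chromatin remodeller. The labels and the methods for this assay state no seeding density or confluence, so the regions below are a view of the chromatin at these genes and not a measurement of density signalling.

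The Hippo pathway couples cell crowding, shape and attachment to transcription. In crowded cells the kinases LATS1 and LATS2 phosphorylate YAP (encoded by *Yap1*) and TAZ (encoded by *Wwtr1*), which then stay in the cytoplasm, while in sparse or stretched cells YAP and TAZ enter the nucleus. There they bind DNA through the TEAD proteins, which read the sequence CATTCC, often beside AP-1 sites, and in mesenchymal progenitors they are known for favouring growth and bone over fat formation.

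Presence and rank were compared. Presence asks whether a library holds a peak in the region. A gained region held a peak in 2 or 3 libraries of the clone and in 0 of the 3 WT libraries, and a lost region the other way round. Rank is the percentile of the region's strongest peak within its own library by the −log10 q value, with 100 the strongest, and it was compared by limma over the 47431 regions that held a peak in all 9 libraries, with Benjamini-Hochberg adjustment over all of them and a threshold of 0.05. Rank differences are given in percentile points with the standard error (SE). The libraries held 76385 to 88535 peaks, and the lists give no read counts, so the sequencing depth behind each value is unknown. B10 and G7 share their WT libraries, so their differences from WT are not independent. Replicates carry numbers, but no label says that they were separate cultures, so the p-values may measure technical spread. In bulk cells, a site open in fewer cells and a site less open in every cell cannot be told apart. Promoters of all 11 mesenchymal marker genes looked at (among them *Prrx1*, *Twist1*, *Pdgfra* and *Col1a1*) held a peak in all 9 libraries. Of 10 markers of blood, epithelial, endothelial and neural cells, 4 did so as well (*Krt8*, *Pecam1*, *Sox10* and *Rbfox3*), and *Ptprc*, *Cd3e*, *Epcam* and *Cdh1* held none.

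The members were unequal in number of regions. *Tead1* had 25, *Amotl2* 18, *Lats2* and *Ankrd1* 15 each, *Tead4* 14, *Wwtr1* 13, *Axl* 4, *Yap1* 3, *Tead3* 2 and *Tead2* 1. Of the 110 regions, 20 lay within 3 kb of a protein-coding start site (18.2%, against 19.2% of all consensus regions), 44 in introns, 40 between genes and 6 in exons or UTRs. The farthest lay 109.4 kb from the start site of *Ankrd1*, and 93 lay within 50 kb. The *Lats2* regions depend most on the assignment: 12 of the 15 also lie inside the overlapping gene model *Gm49361*, and 3 stayed with *Lats2* when each gene had 1 start site.

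Because TEAD proteins read CATTCC, this motif (either strand) was searched within 100 bp of each region's summit in GRCm38, the assembly that mm10 names. It was found in 27 of the 110 regions (24.5%, against 16.1% of all consensus regions). The share was 7 of 20 (35.0%) among the promoter regions, against 10.8% of all promoter regions. The AP-1 motif TGANTCA, which can share letters with CATTCC but did so in 0 of the 110 regions (367 of all regions), was found in 27 regions (24.5%, against 22.4%), and 9 regions held both (8.18%, against 3.92%). A match is a description of the letters and does not show that a protein was bound. The matches in the main promoter regions of 5 members are shown first because they place the TEAD motif at genes of the same pathway. Of these genes, only *Tead1* and *Tead3* encode TEAD proteins. CATTCC is in capitals, 5′ to 3′ on the strand that reads CATTCC.

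*Yap1* promoter region, plus strand of chr9:8004720-8004749: tgcgcgtcgctaCATTCCtgcagactcccg
*Tead1* promoter region, plus strand of chr7:112679110-112679139: gcgcacacccggCATTCCtagtatccggcc
*Tead3* promoter region, plus strand of chr17:28350970-28350999: tcccgcgcacccCATTCCtcgctcgtcgtc
*Amotl2* promoter region, minus strand of chr9:102717521-102717550: ccgtgcggcattCATTCCctgccaccctgc
*Ankrd1* promoter region, plus strand of chr19:36119950-36119979: caggtgaattttCATTCCagacttagtgtc
*Ankrd1* promoter region, plus strand of chr19:36120037-36120066: atgtgagagggtCATTCCtttggcagtgac

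The *Ankrd1* promoter region held 2 matches, the other 4 shown 1 each. Further promoter regions of *Tead1* and *Lats2* held a match and are not shown. The next set comes from those regions with a rank called different in a clone that held a match, with the motif again in capitals.

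*Axl* region 4.4 kb upstream, plus strand of chr7:25793203-25793232: aacttctcctggCATTCCtcctggtccctc
*Ankrd1* region 75.3 kb upstream, plus strand of chr19:36195198-36195227: aaaatctgagagCATTCCtcttctgctcac
*Tead1* region 64.0 kb upstream, plus strand of chr7:112615498-112615527: ggcaggcggccaCATTCCtatgggaacctt
*Tead1* intron region, plus strand of chr7:112700291-112700320: ctccccttgcttCATTCCatctctgagcaa
*Tead4* intron region, minus strand of chr6:128282282-128282311: ctccctcaggcgCATTCCagcctctggtgc
*Tead4* intron region, plus strand of chr6:128282362-128282390: cccagggtcagTGAATCAgcactgtacat
*Wwtr1* intron region, plus strand of chr3:57510418-57510446: gcctagcagtgTGACTCAtagacctgtct

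The region with the clearest decrease in both clones, 59.0 kb upstream of *Ankrd1*, held neither motif in this window. Neither did the called regions 10.7 kb downstream at *Wwtr1*, 38.2 kb downstream at *Tead1*, 13.9 and 30.4 kb upstream at *Ankrd1*, or both *Tead4* promoter regions. Of 22 Hippo gene regions with CATTCC open in every library, 5 were higher in B10. That is 22.7%, against 18.8% of all 64 and 13.9% of all shared regions with CATTCC.

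Most regions of the Hippo genes kept their presence. In B10, 9 of the 110 regions were gained, against 10.4% of all consensus regions, and 1 was lost, against 7.58%. In G7, 4 were gained, against 5.69%, and 4 were lost, against 7.42%. In both clones 3 were gained, against 2.97% of all regions, and 1 was lost, against 4.36%. At least 1 of these calls was made for 14 regions (12.7%), against 23.8% of all regions. The shares of regions gained in B10 and in both clones were near those of all regions, and the share lost in B10 was below it. Single libraries changed these counts. Without WT replicate 1 or 2, 17 and 14 regions were gained in B10, 9 and 10 in G7, and 8 in both clones either way. Over all regions the B10 shares then were 15.6% and 11.9%, beside 15.5% and 12.7% of the 110, and the shares gained in both clones 5.75% and 3.80%, beside 7.27%. The G7 shares over all regions were 9.26% and 7.17%, beside 8.18% and 9.09%. Without B10 replicate 2 or 3, 5 were gained in B10 (4.55%, against 6.09% and 7.61% of all regions) and 1 in both, and leaving out any G7 replicate left 2 gained in G7 (1.82%, against 3.26% to 3.49%) and 1 in both. No region was lost in both clones without WT replicate 2 or 3 (0 of 110, against 2.14% and 2.20% of all regions). Without B10 replicate 2 or 3, 3 and 2 were lost in both (2.73% and 1.82%, against 4.96% and 4.72%).

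Same-numbered libraries of the 3 lines deviated together, so the calls were also made within replicate numbers (a peak in the clone and not in WT for at least 2 numbers, and the reverse for none). Then 17 regions were gained in B10, against 15.0% of all regions, and 1 was lost, against 9.87%. In G7 8 were gained, against 8.78%, and 5 lost, against 9.74%. In both clones 6 were gained, against 4.88%, and 1 lost, against 5.88%.

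**Figure D1:**
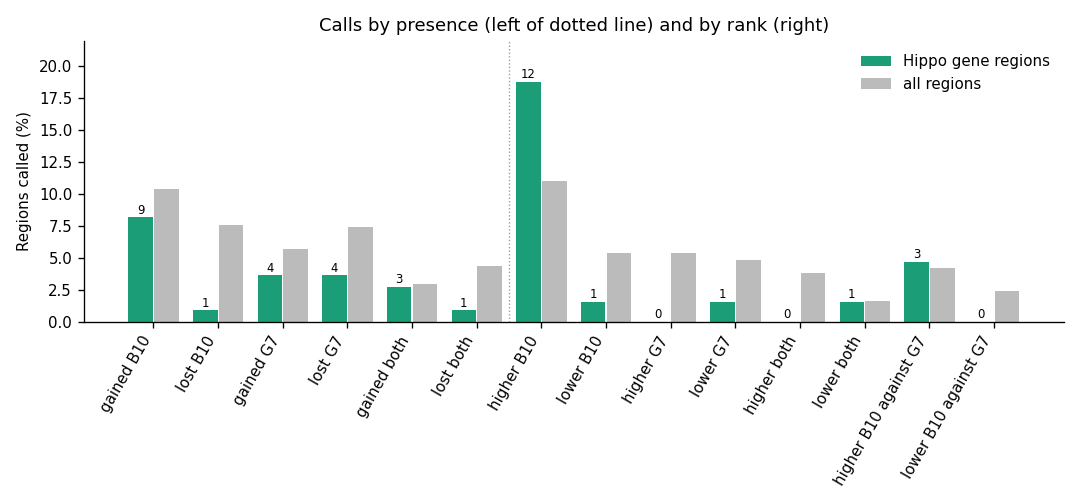
Percent of regions called by presence (left of the dotted line, 110 Hippo gene regions and 97338 regions in all) and by rank (right, 64 and 47431), with green bars for the Hippo genes, grey bars for all regions, and the number of Hippo gene regions above each green bar. The bar for higher rank in B10 reaches 18.8% against 11.0%, and most of the other green bars stand below the grey ones.

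By rank, 64 of the 110 regions held a peak in all 9 libraries. Their median difference from WT was 3.83 points in B10, against 0.702 over all 47431 regions, and 0.755 points in G7, against -0.035. In B10, 12 of the 64 were called higher, against 11.0% of all regions, and 1 lower, against 5.37%. In G7, 0 were called higher by limma (6 at an unadjusted p under 0.05), against 5.39%, and 1 lower, against 4.82%. None was called higher in both clones (0 by limma, 4 at an unadjusted p under 0.05), against 3.81%, and 1 was called lower in both, against 1.66%. Between the clones, 3 were higher in B10 than in G7, against 4.21%, and 0 were lower (2 at an unadjusted p under 0.05), against 2.39%.

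Without B10 replicate 2 the count higher in B10 was 3 and the median difference 1.34 points. That count was 4 without B10 replicate 3, 7 without B10 replicate 1 and 5 without WT replicate 3. The same count over all regions was 5226 in the main fit. It became 2732 and 3311 without B10 replicate 2 or 3, 3141 without B10 replicate 1 and 3254 without WT replicate 3. Without WT replicate 1, 4 regions were called higher in both clones and 6 higher in B10 than in G7, and without any single B10 replicate 0 were higher in B10 than in G7. Without WT replicate 1 the counts over all regions rose as well, from 1805 to 3231 and from 1998 to 2829. Without B10 replicate 1, 2 or 3, 928, 624 and 754 of all regions were higher in B10 than in G7. The region lower in both clones was not called without WT replicate 2 or 3. Lower in both clones were then 298 and 297 of all regions, against 785 in the main fit. Over all regions, the split in B10 was 5226 higher and 2548 lower. It became 4085 and 3612 when every library kept the same number of peaks, and 3221 and 3695 when each library was centred on its median within the chromosome. Among the Hippo gene regions the split stayed at 12 and 1 with equal numbers of peaks and was 9 and 2 with the chromosome median removed, and the median B10 difference was then 0.938 and 0.345 points, against 3.83. On the log2 fold enrichment scale 3 were higher in B10, of which 2, the *Wwtr1* region 65.4 kb downstream and the *Ankrd1* region 13.9 kb upstream, were also called by rank. The remaining region, 63.3 kb upstream of *Ankrd1*, was the 1 region higher in both clones on this scale, beside 479 of all regions.

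With the replicate number as a term in the limma fit, 22 regions were higher in B10 (background 21.4%) and 4 lower (12.1%). In G7 it called 6 higher (13.2%) and 2 lower (13.4%). In both clones 4 were higher (9.62%) and 2 lower (5.51%), and B10 stood above G7 in 11 (14.3%) and below it in 2 (6.58%). All 3 B10 libraries ranked above all 3 WT libraries in 19 of the 64 regions (20.9% of all regions) and below them in 3 (13.3%), and the 3 G7 libraries above in 9 (14.2%) and below in 5 (15.1%).

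Each of the 10 genes had a promoter region with a peak in every library. These were among the stronger peaks, with *Wwtr1*, *Lats2*, *Amotl2* and *Tead4* ranking 89.3 or higher in each library and *Tead2* lowest, between 58.2 and 77.9. Of the 10 promoter regions, 1 was called different from WT, that of *Tead4* in B10, while 16.2% of the 13764 shared promoter regions were called in B10 and 11.5% in G7.

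**Figure D2:**
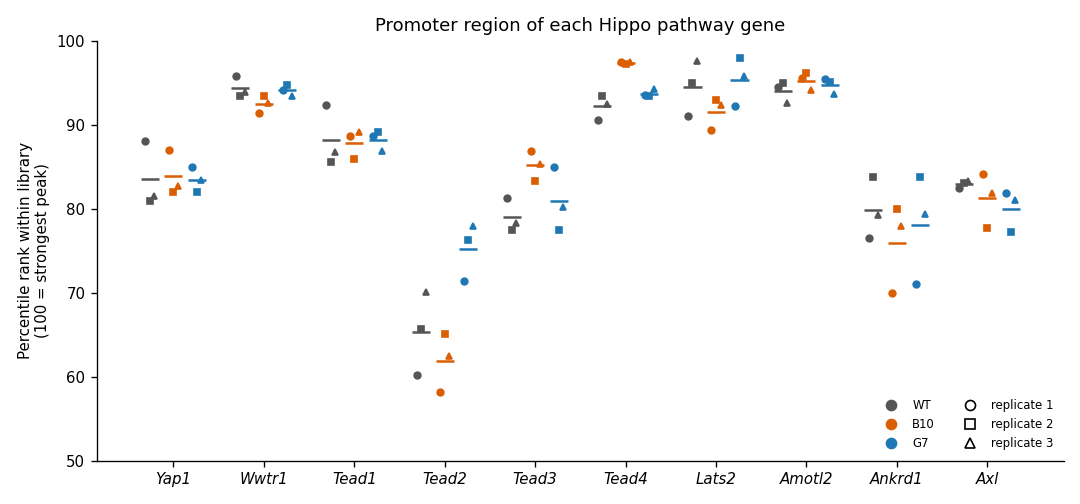
Percentile rank of the promoter region of each Hippo gene (vertical axis, from 50 to 100) in the 9 libraries, coloured by line, with a different symbol for each replicate number and a line at the mean of each group. The *Tead4* points of B10 lie above those of WT and G7, the *Tead2* points of G7 lie above those of WT and B10, and the groups overlap for most other genes.

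YAP is the transcriptional co-activator on which the pathway acts. The *Yap1* promoter region (chr9:8003163-8005187) ranked 88.1, 80.9 and 81.5 in WT, 87.0, 82.0 and 82.7 in B10, and 84.9, 82.0 and 83.4 in G7. The 3 groups overlapped, and the differences from WT were 0.388 points in B10 (SE 2.21, limma adjusted p = 0.933) and -0.0795 in G7 (SE 2.21, limma adjusted p = 0.989). The region 12.9 kb upstream (chr9:8017155-8017739) ranked 40.9, 44.0 and 36.3 in WT, 35.1, 48.1 and 51.5 in B10 and 28.7, 35.2 and 35.5 in G7. There the G7 libraries were all below the WT libraries, but the G7 difference of -7.23 points was not called (SE 5.55, limma adjusted p = 0.459). No region of *Yap1* was gained or lost in either clone.

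TAZ is the paralogue of YAP. The *Wwtr1* promoter region (chr3:57574987-57576789) ranked 95.8, 93.4 and 93.9 in WT, 91.4, 93.4 and 92.6 in B10 and 94.1, 94.7 and 93.4 in G7, and neither clone was called different. Inside the gene, the region 10.7 kb downstream of the start site (chr3:57564669-57565519, intronic) ranked 40.2, 20.0 and 23.9 in WT, 56.9, 52.1 and 54.4 in B10, and 60.3, 46.2 and 44.8 in G7. All 6 KO libraries stood above all 3 WT libraries. The difference was 26.4 points in B10 (SE 6.45, limma adjusted p = 0.0224) and 22.4 in G7 (SE 6.45, limma adjusted p = 0.0563). With the replicate number in the fit both were called (adjusted p = 0.00186 and 0.00643). The B10 call was lost on the log2 fold enrichment scale (adjusted p = 0.0547) and without WT replicate 2 or 3 or any single B10 replicate (adjusted p from 0.0567 to 0.0798).

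Apart from the promoter regions, those called the same way in both clones and the largest difference of a gene, the regions described here and below fall outside the rule by which regions were named and were picked after their values were seen. A second intronic region of *Wwtr1*, 65.4 kb downstream of the start site (chr3:57510029-57510744), ranked 58.5, 58.4 and 52.8 in WT, 71.9, 73.4 and 75.0 in B10 and 53.3, 62.4 and 53.1 in G7. B10 stood above WT by 16.9 points (SE 3.88, limma adjusted p = 0.0174) and above G7 by 17.2 (SE 3.88, limma adjusted p = 0.0311), while G7 overlapped WT. The call against WT was lost without WT replicate 3, B10 replicate 2 or B10 replicate 3 (adjusted p from 0.0589 to 0.0688), and that against G7 without any single B10 replicate or without G7 replicate 1 or 3 (adjusted p from 0.0700 to 0.123), with equal numbers of peaks (adjusted p = 0.0564) and on the log2 fold enrichment scale (adjusted p = 0.0998). This is the *Wwtr1* region whose AP-1 match is printed above. Another intronic region (chr3:57527130-57527482) held a peak in the 3 B10 libraries, at ranks 31.2, 48.8 and 47.8, and in no other library.

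The TEAD proteins carry YAP and TAZ to DNA. *Tead1* had the most regions of the 10 genes, and its main promoter region (chr7:112678482-112680137) ranked 92.3, 85.6 and 86.7 in WT, 88.6, 85.9 and 89.1 in B10 and 88.7, 89.1 and 86.8 in G7. These values overlap, with differences of -0.330 and -0.0149 points. An intronic region 27.5 kb downstream of the nearest *Tead1* start site (chr7:112786540-112787468) was gained in both clones. It held peaks at ranks 42.9, 17.3 and 25.1 in B10 and 33.1 and 3.27 in G7 replicates 1 and 2, and no peak in G7 replicate 3 or in WT.

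Another intronic region of *Tead1*, 38.2 kb downstream (chr7:112797127-112798427), had one of the 2 largest rank differences of the 64 regions in B10. It ranked 66.3, 30.3 and 48.0 in WT, 84.5, 81.0 and 79.6 in B10 and 74.7, 72.1 and 73.8 in G7, so all 6 KO libraries stood above WT, whose own libraries were spread widely. The difference was 33.5 points in B10 (SE 7.26, limma adjusted p = 0.0135) and 25.4 in G7 (SE 7.26, limma adjusted p = 0.0554), and both were called with the replicate number in the fit (adjusted p = 0.00120 and 0.00753). The B10 call was lost on the log2 fold enrichment scale (adjusted p = 0.0866). The intronic region 5.9 kb downstream (chr7:112684799-112685657) ranked 63.7, 54.5 and 49.1 in B10 and 48.1, 45.8 and 49.8 in G7, while WT held a single peak there, at rank 17.0. It missed the rule for a gained region because of that WT peak.

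Of the 6 *Tead1* regions with a CATTCC match that were open in every library, 2 were called higher in B10, against 11.0% of all shared regions and 13.9% of those with a match. The region 64.0 kb upstream (chr7:112614815-112615785) ranked 78.2, 70.1 and 75.0 in WT, 85.4, 85.1 and 82.4 in B10 and 80.6, 80.5 and 75.4 in G7, a B10 difference of 9.89 points (SE 2.55, limma adjusted p = 0.0279). The intronic region 8.6 kb downstream (chr7:112700098-112700459) ranked 39.6, 41.2 and 23.5 in WT, 53.9, 57.8 and 55.3 in B10 and 41.8, 47.3 and 42.3 in G7, a B10 difference of 20.9 points (SE 5.46, limma adjusted p = 0.0295). The G7 libraries lay above WT in the second region and overlapped it in the first, and neither G7 difference was called (limma adjusted p = 0.319 and 0.337). The B10 call upstream was lost without WT replicate 2 or 3 or any single B10 replicate (adjusted p from 0.0540 to 0.0897), and on the log2 fold enrichment scale its difference was 0.05 (adjusted p = 0.767). The B10 call in the intron was lost on that scale (adjusted p = 0.0873), without WT replicate 3 or any single B10 replicate (adjusted p from 0.0647 to 0.0939) and with rank 0 for a missing peak (adjusted p = 0.0525).

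*Tead2* and *Tead3* each had a promoter region and at most 1 other. The *Tead2* promoter region (chr7:45215483-45216861) ranked 60.2, 65.7 and 70.1 in WT, 58.2, 65.1 and 62.4 in B10 and 71.4, 76.2 and 77.9 in G7. All G7 libraries were above those of WT and B10, by 9.86 points over WT (SE 3.74, limma adjusted p = 0.130, and 0.0255 with the replicate number in the fit). The *Tead3* promoter region (chr17:28349629-28351492) ranked 81.3, 77.5 and 78.3 in WT, 86.8, 83.3 and 85.3 in B10 and 85.0, 77.4 and 80.2 in G7. B10 stood above WT by 6.12 points (SE 2.21, limma adjusted p = 0.0894, and 0.00871 with the replicate number). The 208 other shared regions within 2 Mb of *Tead3* had a median B10 difference of 4.03 points, and the part of this in the promoter value was not tested.

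In B10, 3 shared regions each of *Tead1* (of 13), *Ankrd1* (of 11) and *Tead4* (of 11) were called higher, against 11.0% of all shared regions. *Tead4* also had 2 of its 14 regions gained in B10, against 10.4% of all regions. Its promoter region (chr6:128299680-128301144) ranked 90.6, 93.4 and 92.5 in WT, 97.4, 97.2 and 97.4 in B10 and 93.5, 93.4 and 94.2 in G7. B10 stood above WT by 5.19 points (SE 0.692, limma adjusted p = 0.00156) and above G7 by 3.67 (SE 0.692, limma adjusted p = 0.0148), with no overlap. The second promoter region (chr6:128275083-128276390) ranked 85.3, 88.8 and 89.8 in WT, 91.9, 95.6 and 94.4 in B10 and 87.2, 90.5 and 90.2 in G7, a B10 difference of 5.96 points (SE 1.47, limma adjusted p = 0.0231). The B10 calls against WT were lost on the log2 fold enrichment scale (adjusted p = 0.378 and 0.385), that of the second promoter also without B10 replicate 2 or 3 (adjusted p = 0.0867 and 0.0731) and without the trend (adjusted p = 0.0697). The main promoter's call against G7 was lost without any single B10 replicate or G7 replicate 2 (adjusted p from 0.0513 to 0.0579), without the trend (adjusted p = 0.116) and on the log2 fold enrichment scale (adjusted p = 0.737).

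The *Tead4* intronic region with both motifs (chr6:128281930-128282726) ranked 81.7, 87.9 and 84.8 in WT, 97.3, 97.0 and 94.5 in B10 and 88.9, 92.5 and 89.7 in G7. The 3 lines did not overlap there, with B10 highest and WT lowest. The difference from WT was 11.5 points in B10 (SE 1.59, limma adjusted p = 0.00187) and 5.54 in G7 (SE 1.59, limma adjusted p = 0.0562, and 0.00535 with the replicate number in the fit). On the log2 fold enrichment scale the B10 difference was not called (adjusted p = 0.0955). A weak intronic region 38.1 kb downstream of the start site (chr6:128237280-128237621) was gained in both clones, at ranks 13.7 and 0.395 in B10 and 4.88 and 15.0 in G7.

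The surroundings of *Tead4* were shifted in B10 as well. Over the 2618 shared regions of chromosome 6 the median B10 difference was 5.68 points, and over the 98 shared regions within 2 Mb of *Tead4* it was 5.69. The corresponding G7 values were 1.45 and 0.21. With each library centred on its chromosome median, the B10 difference was -2.09 points at the main promoter region (limma adjusted p = 0.170), -1.32 at the second (limma adjusted p = 0.643) and 4.18 at the intronic region (limma adjusted p = 0.0860), so the first 2 turned direction and no call remained. A rank cannot pass 100. Whether this limit bore on the promoters, at 85.3 to 93.4 in WT, was not tested.

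**Figure D3:**
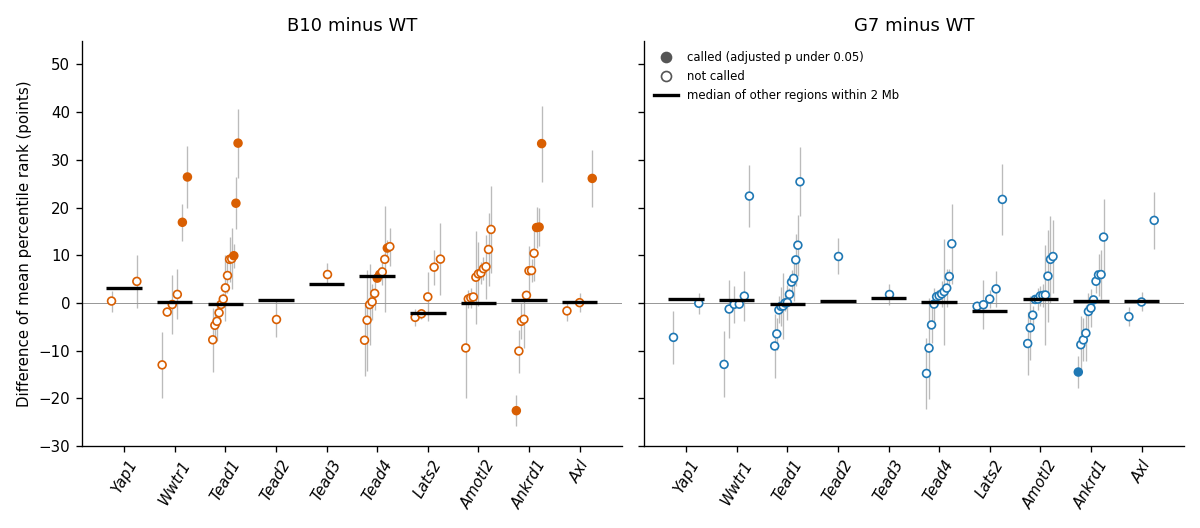
Difference of mean percentile rank from WT (vertical axis, points) for each Hippo gene region open in all 9 libraries, B10 at left and G7 at right, with SE bars, filled points for called regions and a black line at the median of the other shared regions within 2 Mb. The *Tead4* line stands at 5.69 in B10, and the lone filled point of G7 is the *Ankrd1* region at -14.5.

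LATS2 is the kinase that inactivates YAP and TAZ, and *Lats2* is itself a target of YAP. The *Lats2* promoter region with the highest mean rank (chr14:57759627-57761308) ranked 91.0, 94.9 and 97.6 in WT, 89.3, 92.9 and 92.3 in B10 and 92.2, 97.9 and 95.8 in G7, which overlap. The differences were -3.03 points in B10 (SE 1.83, limma adjusted p = 0.301, and 0.0176 with the replicate number) and 0.812 in G7 (SE 1.83, limma adjusted p = 0.831). The median difference over the 1794 shared regions of chromosome 14 was -1.84 points in B10 and -2.16 in G7. The *Lats2* region lost in both clones (chr14:57695647-57695952, intronic) was weak, held at ranks 8.79 and 6.56 by 2 WT libraries and by no other library. It does not belong to *Lats2* when each gene has 1 start site, and then 0 regions of the 10 genes were lost in both clones.

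Inside *Lats2*, the intronic region 3.8 kb downstream of the nearest start site (chr14:57729816-57731158) ranked 59.5, 35.6 and 29.4 in WT, 58.5, 50.5 and 43.0 in B10 and 64.9, 61.0 and 63.5 in G7. The G7 libraries all stood above WT, by 21.7 points (SE 7.50, limma adjusted p = 0.101, and 0.0136 with the replicate number). The region 7.6 kb upstream (chr14:57706832-57708158) had a B10 difference of 7.49 points (SE 3.70, limma adjusted p = 0.204, and 0.00560 with the replicate number).

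AMOTL2 is an angiomotin that holds YAP and TAZ at cell junctions, and its gene is also among their targets. The *Amotl2* promoter region (chr9:102717117-102718610) ranked 94.5, 94.9 and 92.6 in WT, 95.5, 96.1 and 94.1 in B10 and 95.4, 95.1 and 93.7 in G7, which overlap. The differences were 1.24 and 0.725 points, and neither was called (limma adjusted p = 0.340 and 0.629). Of the 11 *Amotl2* regions open in every library, 0 were called in either clone by limma (2 at an unadjusted p under 0.05 in B10 and 0 in G7). Over all shared regions 11.0% were called higher and 5.37% lower in B10, and 5.39% and 4.82% in G7. With the replicate number in the fit 3 of the 11 were called higher in B10, against 21.4% of all shared regions.

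The regions of *Amotl2* that changed presence lay outside the gene. Those 15.5 kb (chr9:102700883-102701451) and 10.0 kb (chr9:102706466-102706934) upstream held no WT peak. The first held peaks at ranks 52.8, 40.7 and 25.1 in B10 and 53.3 in G7 replicate 1, the second at 46.1 and 34.2 in B10 and 30.4 in G7 replicate 1. The region 49.0 kb downstream was held at ranks 10.6 and 11.0 by 2 B10 libraries and by no other. The region 28.5 kb upstream was lost in G7 and had held ranks 21.4 and 20.5 in 2 WT libraries. The *Amotl2* region 43.0 kb downstream (chr9:102762650-102763999), chosen by the rule as the gene's largest difference, ranked 35.9, 70.7 and 70.0 in WT, 66.7, 79.4 and 76.6 in B10 and 56.7, 77.9 and 69.5 in G7. WT replicate 1 stood far below its fellows there, the groups overlapped, and the B10 difference of 15.4 points was not called (SE 9.14, limma adjusted p = 0.294), but it was with the replicate number in the fit (adjusted p = 0.0237).

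**Figure D4:**
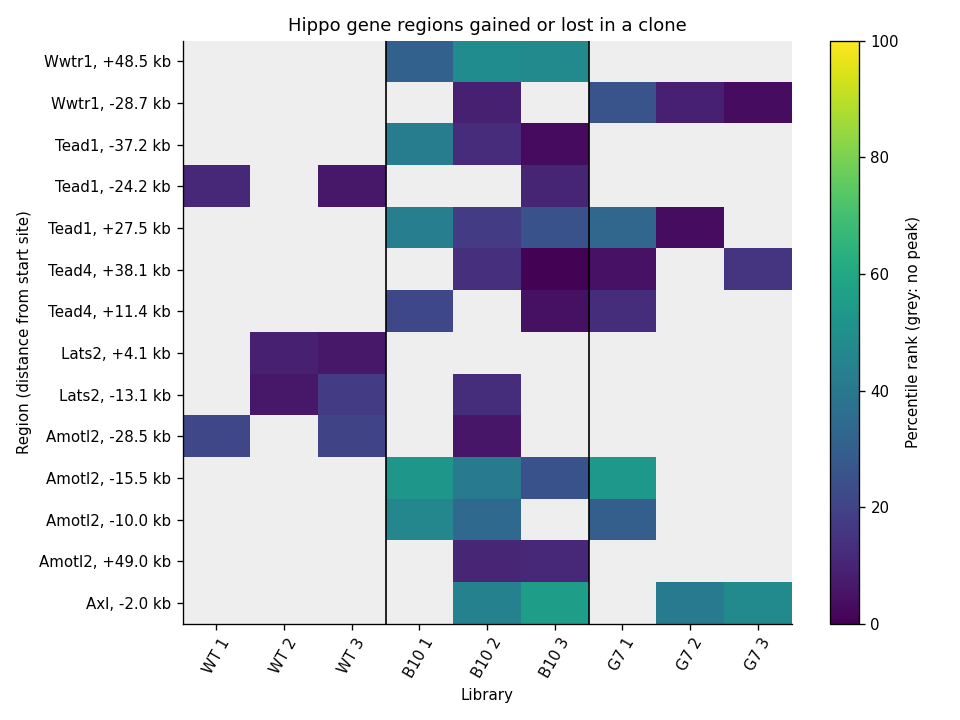
Percentile rank (colour scale, grey for no peak) in the 9 libraries of the 14 Hippo gene regions gained or lost in at least 1 clone, labelled by gene and distance from the nearest start site of that gene. No rank in these regions passes the 55.9 of *Axl* in B10 replicate 3, and the lost regions stay at or below 21.4.

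*Ankrd1* encodes a muscle ankyrin repeat protein and is a widely used readout of YAP and TAZ. Its promoter region (chr19:36119027-36120570) ranked 76.5, 83.7 and 79.2 in WT, 69.9, 80.0 and 77.9 in B10 and 71.0, 83.7 and 79.4 in G7. These overlap, and the differences of -3.86 and -1.80 points were not called (SE 3.80 each, limma adjusted p = 0.546 and 0.817). The other 14 regions of the gene lay up to 109.4 kb away, and those upstream went in both directions.

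The region 59.0 kb upstream of *Ankrd1* (chr19:36178677-36179524, between genes) was the single Hippo gene region called the same way in both clones by rank in the main fit. That is 1.56% of the 64 called lower in both, against 1.66% of all shared regions. With the replicate number in the fit 4 were higher and 2 lower in both clones, this region among the lower ones. The region 59.0 kb upstream ranked 83.8, 85.7 and 84.8 in WT, 64.4, 63.1 and 59.1 in B10 and 63.6, 73.4 and 73.7 in G7. Its fold enrichment was 12.0, 12.4 and 12.4 in WT, 7.97, 7.89 and 7.63 in B10 and 7.76, 9.50 and 10.1 in G7. All 6 KO libraries lay below all 3 WT libraries on both scales.

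The rank difference was -22.6 points in B10 (SE 3.31, limma adjusted p = 0.00239) and -14.5 in G7 (SE 3.31, limma adjusted p = 0.0243). The B10 call held under the 16 alternatives that kept the region. The G7 call was lost on the log2 fold enrichment scale (adjusted p = 0.172), without WT replicate 2 (adjusted p = 0.0856) and without WT replicate 3 (adjusted p = 0.0825), with a difference below 0 in each. The 111 other shared regions within 2 Mb of *Ankrd1* had median differences of 0.52 points in B10 and 0.31 in G7. At 59.0 kb the region lies outside the limit of 50 kb used as an alternative, and which gene it acts on was not tested.

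A weaker *Ankrd1* region, 12.3 kb upstream (chr19:36132107-36132779), also had lower ranks in the KO libraries. It ranked 71.8, 70.1 and 66.9 in WT, 41.2 and 40.2 in B10 replicates 2 and 3, and 21.0, 37.1 and 23.2 in G7, with no peak in B10 replicate 1. Its fold enrichment was 5.30, 5.46 and 4.90 in WT and between 2.69 and 3.25 in the KO libraries that held it. The missing peak kept it out of the limma fit, and it was not called lost by presence. Nearer the gene, the region 9.2 kb upstream (chr19:36128696-36129955) ranked 75.0, 80.7 and 85.9 in WT, 63.0, 73.2 and 75.1 in B10 and 65.1, 76.0 and 77.3 in G7. Its differences of -10.1 and -7.76 points were called with the replicate number in the fit (limma adjusted p = 0.00451 and 0.0219) and not without it (limma adjusted p = 0.161 and 0.316).

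Other upstream *Ankrd1* regions stood higher in B10. That 13.9 kb upstream (chr19:36133613-36134324), less than 1 kb from the weaker region above, ranked 82.4, 68.5 and 62.7 in WT, 89.1, 87.0 and 84.9 in B10 and 79.9, 77.8 and 73.4 in G7, a B10 difference of 15.8 points (SE 4.37, limma adjusted p = 0.0361). This call was lost in 8 of 16 alternatives, without the trend (adjusted p = 0.0718) and without any single B10 replicate, WT replicate 2 or 3, or G7 replicate 2 or 3 (adjusted p from 0.0511 to 0.108). That 30.4 kb upstream (chr19:36149806-36151267) ranked 73.8, 73.2 and 63.6 in WT, 86.0, 86.7 and 85.6 in B10 and 66.1, 77.3 and 63.8 in G7. B10 stood above WT by 15.9 points (SE 3.98, limma adjusted p = 0.0245) and above G7 by 17.0 (SE 3.98, limma adjusted p = 0.0352), and G7 overlapped WT. The call against WT was lost without WT replicate 3 or any single B10 replicate (adjusted p from 0.0673 to 0.0814) and on the log2 fold enrichment scale (adjusted p = 0.262), and that against G7 without any single B10 replicate or G7 replicate 1 or 3 (adjusted p from 0.0769 to 0.130), without the trend (adjusted p = 0.0631) and on the log2 fold enrichment scale (adjusted p = 0.240).

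The *Ankrd1* region 75.3 kb upstream (chr19:36195021-36195777), with the CATTCC match printed above, ranked 45.7, 30.3 and 48.4 in WT, 71.3, 75.1 and 78.2 in B10 and 66.2, 36.2 and 63.5 in G7. The B10 difference was 33.4 points (SE 7.96, limma adjusted p = 0.0203), and the G7 difference of 13.8 was not called (SE 7.96, limma adjusted p = 0.312), G7 replicate 2 lying among the WT values. The B10 call was lost without WT replicate 2, B10 replicate 2 or B10 replicate 3 (adjusted p from 0.0621 to 0.0717) and on the log2 fold enrichment scale (adjusted p = 0.0697). The region 63.3 kb upstream (chr19:36183049-36183710) ranked 73.5, 74.6 and 77.6 in WT. It ranked 84.6, 81.6 and 80.0 in B10 and 83.9, 77.7 and 77.8 in G7. Its fold enrichment was 8.32, 8.54 and 9.79 in WT, 16.0, 14.5 and 14.3 in B10 and 15.3, 10.9 and 11.5 in G7. All 6 KO libraries lay above WT on both scales, and log2 fold enrichment was called in both clones. The rank differences, 6.79 and 4.54 points, were not called (SE 2.39, limma adjusted p = 0.0834 and 0.268). The strongest region of the gene, 87.9 kb upstream (chr19:36207315-36208774), stayed between 94.1 and 98.5 in all 9 libraries.

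**Figure D5:**
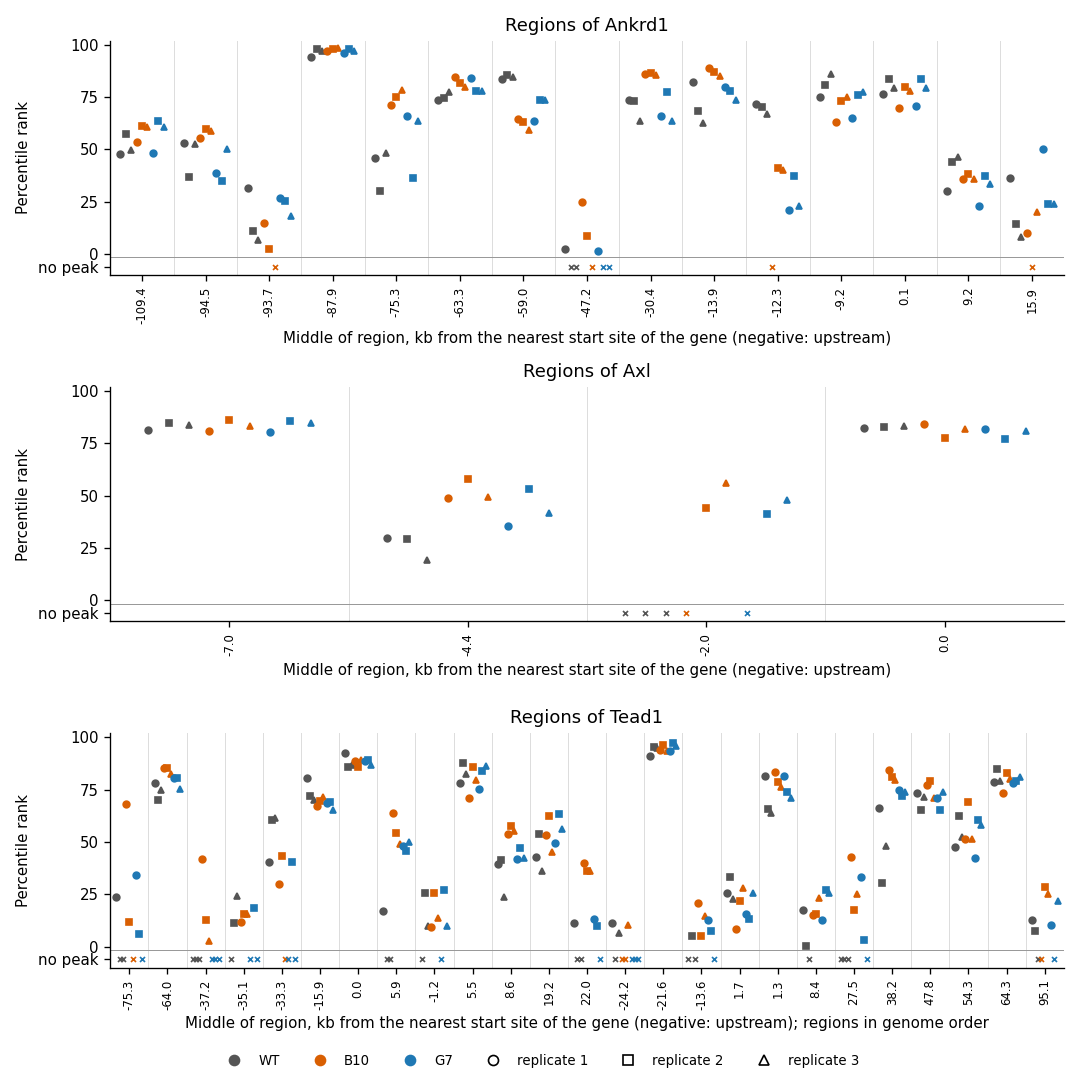
Percentile rank (vertical axis, crosses for no peak) in the 9 libraries of each region of *Ankrd1*, *Axl* and *Tead1*, placed in order and labelled in kb from the nearest start site of the gene (not to scale), coloured by line with a symbol per replicate number. At -59.0 kb of *Ankrd1* the KO points lie below WT, and at -4.4 kb of *Axl* and 38.2 kb of *Tead1* they lie above.

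AXL is a receptor tyrosine kinase and a YAP target in many cell types. The *Axl* promoter region (chr7:25788272-25789041) ranked 82.5, 83.0 and 83.3 in WT, 84.1, 77.7 and 81.9 in B10 and 81.8, 77.2 and 81.0 in G7. The G7 libraries were all below WT, and the differences of -1.68 and -2.89 points were not called (SE 2.05 each, limma adjusted p = 0.638 and 0.419). A region 2.0 kb upstream (chr7:25790568-25790900) was gained in both clones. It held peaks at ranks 44.1 and 55.9 in B10 replicates 2 and 3 and 41.4 and 47.9 in G7 replicates 2 and 3, with a fold enrichment between 3.62 and 4.85, and no peak in WT or in replicate 1 of either clone.

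The neighbouring *Axl* region, 4.4 kb upstream (chr7:25792921-25793337, between genes), with the CATTCC match printed above, ranked 29.6, 29.2 and 19.5 in WT, 49.0, 57.9 and 49.6 in B10 and 35.4, 53.2 and 41.6 in G7. All 6 KO libraries stood above WT. The difference was 26.1 points in B10 (SE 5.92, limma adjusted p = 0.0165) and 17.3 in G7 (SE 5.92, limma adjusted p = 0.0974, and 0.0273 with the replicate number in the fit). The B10 call was lost without WT replicate 3 (adjusted p = 0.0647), without B10 replicate 2 (adjusted p = 0.0665) and on the log2 fold enrichment scale (adjusted p = 0.0700). The 131 other shared regions within 2 Mb of *Axl* had median differences of 0.24 and 0.33 points.

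Other genes of the pathway were described by the same calls. Of 28 regulators of the pathway, among them *Vgll1*, *Vgll2*, *Vgll3* and *Vgll4*, 26 had a region, 312 in all. By presence 18 of these were gained in both clones (5.77%, against 2.97% of all regions) and 8 lost (2.56%, against 4.36%), and of the 142 open in every library 8 were higher in both clones (5.63%, against 3.81%) and 2 lower (1.41%, against 1.66%). With the replicate number in the fit these were 24 and 6 of 142, beside 9.62% and 5.51% of all regions. Of 17 other target genes of YAP and TAZ, all had a region, 353 in all. By presence 9 were gained in both clones (2.55%) and 6 lost (1.70%), and of the 184 open in every library 6 were higher in both (3.26%) and 4 lower (2.17%), which became 20 and 10 of 184 with the replicate number.

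Among the 28 regulators, 3 of 37 promoter regions were gained in both clones (8.11%, against 1.61% of all promoter regions), at *Amot*, *Vgll4* and *Wwc1*. Of the 29 open in every library, 1 was higher in both (3.45%, against 3.81%). Among the other targets, 1 of 31 was gained in both (3.23%) and 0 of 23 were called in both by rank. With the replicate number in the fit, *Wwc2* and *Fat4* were higher in both clones among the regulators (6.90% of promoter regions, against 8.59% of all), *Wtip* was lower (3.45%, against 4.56%), and among the targets *Ccn2* was higher (4.35%). The promoter region of *Fat4*, an atypical cadherin at the head of the pathway (chr3:38884216-38886837), ranked 81.0, 78.4 and 79.9 in WT, 88.6, 85.7 and 87.2 in B10 and 88.0, 86.7 and 85.5 in G7. It was higher in B10 by 7.41 points (SE 1.40, limma adjusted p = 0.00751) and in G7 by 6.93 (SE 1.40, limma adjusted p = 0.0149), with no overlap with WT. The promoter region of *Wwc1*, which encodes the scaffold protein KIBRA (chr11:35979827-35980870), held no WT peak and was held at ranks 26.7, 39.5 and 28.1 in B10 and 27.3, 41.9 and 43.3 in G7. The *Vgll4* promoter region gained in both clones (chr6:114968590-114970113) held no WT peak and ranked 67.9, 58.2 and 70.5 in B10 and 49.4, 45.9 and 51.3 in G7. Another of the 3 *Vgll4* promoter regions (chr6:114921570-114922253) held a peak in all 9 libraries, at ranks from 78.1 to 89.1. VGLL4 competes with YAP for TEAD, and its gene lies on chromosome 6, where B10 ranks were shifted. Weaker promoter regions were gained in both clones at *Amot*, the angiomotin gene on the X chromosome (chrX:145483512-145484093, ranks 16.9 to 27.5), and at the target *Rbms3* (chr9:117250084-117250709, ranks 0.867 to 24.0), each missing from 1 or 2 KO libraries. Another *Amot* promoter region (chrX:145504673-145506468) ranked 82.8 to 89.2 in all 9 libraries, and neither clone was called different. Another *Rbms3* promoter region (chr9:117251699-117252870) held a peak in WT replicate 3, at 5.69, and in all 6 KO libraries, at 29.1 to 52.8.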

How the data were processed

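ATAC-seq peak lists of 9 libraries were used, 3 each of WT, B10 and G7, grouped and numbered by their titles. The authors checked read quality with Rfastp, aligned reads to mm10 with Rsubread and called peaks per replicate with MACS2 in paired-end mode (version not given in the sources used here). The deposited lists hold each peak's fold enrichment (a ratio), −log10 p and −log10 q values and its summit offset. The file names mention an input, which the ATAC-seq methods do not name. With no read counts, the study's DESeq2 test could not be run.

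Peaks on the main chromosomes were merged (overlap of at least 1 bp) into 135835 regions, of which 97338 entered. Ranks were compared with limma 3.58.1 (trend, R 4.3.3) on 47431 regions; tables used Python 3.11.15. The fit was also run on simulated libraries, drawn independently with no effect of the replicate number and shifted at regions of middle rank. That run cannot speak for paired libraries or for ranks near the top. Regions were named by a rule: the promoter region with the highest mean rank of each gene, those called the same way in both clones (by rank at most 3 per gene and direction), otherwise the largest mean difference. Members and gene lists were chosen with earlier results of these data known.

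Same-numbered libraries deviated together from their line means over regions (correlations from 0.314 to 0.664, all 9 pairs). Replicate numbers, taken from the titles, were therefore treated as pairing the libraries in alternative calls and fits. The main presence calls and the main limma fit used no replicate number. No pair of libraries shared over 0.379% identical peaks. Alternatives covered the number of peaks, thresholds, overlap, gene assignment, scale, chromosome centring, replicates 2 and 3 only and each library left out.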

Additional observations from a re-analysis of the deposited data

Results flagged for a closer look

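By the direct limma comparison of B10 with G7, 3 of the 64 shared regions were called higher in B10. That is 4.69%, against 4.21% of all shared regions. Without any single B10 replicate, 0 regions were called higher in B10 than in G7. The *Wwtr1* intronic region 65.4 kb downstream of the start site stood 17.2 points higher in B10 (SE 3.88, limma adjusted p = 0.0311), with no overlap between the clones. The *Ankrd1* region 30.4 kb upstream stood 17.0 points higher in B10 (SE 3.98, limma adjusted p = 0.0352), again with no overlap. The *Tead4* promoter region stood 3.67 points higher in B10 (SE 0.692, limma adjusted p = 0.0148), beside a median B10 difference from WT of 5.68 points over chromosome 6, against 1.45 in G7. With the chromosome median removed, this *Tead4* difference between the clones was -1.8 points.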

How the results depend on the processing

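Presence counts are of 110 regions (99 with 1 start site per gene, 93 within 50 kb) and rank counts of the 64 shared ones, except 63 with equal numbers of peaks, 60 with 1 start site per gene, 51 within 50 kb, 71 with replicates 2 and 3 only, 110 with rank 0 for a missing peak and 64 to 66 with a library left out. Requiring peaks to cover 50% of the region gave 14 gained in B10, 8 in G7 and 6 in both, and 3 lost in B10. Over all regions these counts were 11684, 7158, 3371 and 9566, against 10157, 5536, 2889 and 7381 in the main calls. Equal numbers of peaks gave 7 gained in G7, 2 lost in B10 and 2 lost in both, and by rank 1 higher in G7, 1 higher in both and 1 lower in B10 than in G7. The presence counts over all regions were then 5704, 8464 and 4442, against 5536, 7381 and 4247. The rank counts over all regions were 2643, 1636 and 1755, against 2558, 1805 and 1132. With 1 start site per gene, 0 were lost in B10, 2 in G7 and 0 in both, and 2 were lower in B10 and 1 lower in B10 than in G7. Gene assignment does not alter the counts over all regions.

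The replicate block (pairing by replicate number) gave 17 gained in B10, 8 in G7 and 6 in both. By rank it gave 22 higher and 4 lower in B10, 6 and 2 in G7, 4 and 2 in both, and 11 and 2 for B10 against G7. Replicates 2 and 3 only gave 19 and 4, 6 and 2, 5 and 2, and 7 and 3. Over all regions the same counts were 8714 and 5011, 5042 and 4535, 3689 and 1830, and 4408 and 2275. The log2 fold enrichment gave 3 higher in B10, 1 higher and 0 lower in G7, 1 and 0 in both, and 0 higher in B10 than in G7. Over all regions this scale gave 1523 higher in B10, 709 higher and 647 lower in G7, and 479 and 266 in both. Higher in B10 than in G7 were 352 of all regions. Rank 0 where a peak was missing gave 2 lower in B10, 1 higher and 2 lower in G7, 1 and 2 in both, and 6 and 1 for B10 against G7. Of all 97338 regions these counts were 6391, 4500 and 5519, 2795 and 3295, and 5796 and 2415. Without the trend, 1 was higher in B10 than in G7, beside 1384 of all regions. Within 50 kb, 0 were lower in B10, in G7 and in both, since the *Ankrd1* region lies farther out. With the chromosome median removed 2 were lower in B10, the median B10 difference was 0.345 points (-0.834 over all regions), and 3 differences reversed: *Tead4* promoter regions against WT (-2.09 and -1.32) and the main one against G7 (-1.80).

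Leaving out each library in turn changed the gained regions to between 5 and 17 (B10), 2 and 10 (G7) and 1 and 8 (both), and the lost ones to between 0 and 3, 0 and 7, and 0 and 3. By rank it gave 3 to 17 higher and 1 to 2 lower in B10, 0 to 4 and 0 to 2 in G7, 0 to 4 and 0 to 2 in both, and 0 to 6 and 0 to 1 for B10 against G7. The count higher in B10 over all regions ranged from 2732 to 7268, against 5226 in the main fit. The median differences of the Hippo gene regions ranged from 1.34 to 4.33 points in B10 and from 0.35 to 1.27 in G7. For these moves the cause was not tested. Of the single-region differences under the alternatives, 197 kept their direction and call, 72 kept the direction and lost the call, and 3 reversed. These differences were followed because the main fit called them. Leaving out a library of the line not compared left the difference itself unchanged, so the tally overstates how far the calls were tried. The lists hold called peaks only, so a missing peak can be a signal just under the authors' threshold, and depth cannot be weighed.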
